A study of Caenorhabditis elegans with 12 samples.

Results

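The cytochrome P450 genes of *C. elegans* were followed in whole worms in which RNAi was aimed at *cat-1* or *cat-2* in dopaminergic neurons. The members are the rows of the deposited RPKM table whose name starts with cyp- and a number. They are 81 of 46739 features. A feature was tested where 4 or more of the 12 libraries reached 0.5 RPKM, which left 13161 features and 49 of the P450 genes. RPKM is the number of reads of a gene divided by its length in kilobases and by the library's mapped reads, scaled to a fixed number of mapped reads.

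P450 enzymes hold a heme at which oxygen is split, and an oxygen atom is added to a fat-soluble substrate with electrons that a reductase passes on from NADPH. In *C. elegans* many of them act in the intestine on toxins, drugs and fatty acids, others make signalling lipids or steroid hormones, and the CYP31A enzymes act in the oocyte and embryo, where the lipid layer of the eggshell is made. The family has grown by tandem duplication in nematodes, so that neighbouring genes are often close copies. The genes are sorted here by clan, the broad branch of the P450 tree to which a family belongs.

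All 12 libraries, labelled as biological replicates, came from day 1 adults of the strain PMD216. Every group, the control included, carries rrf-3(b26) II and rde-1(ne219) V with the transgenes dat-1p::sid1-SL2-rde-1 and dat-1p::GFP, and the study's list of strains adds fem-1(hc17), eri-1(mg366), lin-15B(n744), egIs1 and wpSi6. The strain is mutant for *rde-1*, a gene that RNAi needs, and has it restored, with the double-stranded RNA importer *sid-1*, from the promoter of the dopamine transporter gene *dat-1*, so RNAi is meant to act in the dopaminergic neurons alone. Worms were raised on HT115 bacteria with the empty L4440 vector (EV, 4 libraries), with *cat-1* RNAi (4 libraries) or with *cat-2* RNAi (4 libraries). The product of *cat-1* loads monoamines into synaptic vesicles, and that of *cat-2*, a tyrosine hydroxylase, opens dopamine synthesis. RNA was taken from whole worms and selected for poly(A), so a difference in a P450 transcript here is one in the whole animal, and fewer cells of a type and less RNA per cell cannot be told apart.

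The libraries held 18765779 to 21493743 mapped reads, and whole reads could be recovered from the RPKM values. The targeted genes had more reads in their own RNAi libraries, not fewer. *cat-1* had 2 to 5 reads in each EV library and 12 to 61 in each library labelled *cat-1* RNAi, and *cat-2* had 4 to 7 reads in each EV library and 26 to 64 in each library labelled *cat-2* RNAi. The groups are therefore called by their labels. Genes of all 12 lists of cell type markers, from intestine and epidermis to germ line and neurons, were detected in these whole worms. The 8 sperm markers summed to 6.42 to 10.6 RPKM per library, against 2761 to 3015 RPKM for the 6 oocyte markers. Limma's quality weight, which is low where a library departs widely from its group over all features, was 0.331 in *cat-2* RNAi replicate 2, 0.629 in *cat-2* RNAi replicate 3, 0.780 in *cat-1* RNAi replicate 3 and 0.914 to 1.54 in the other libraries. The counts of P450 genes are given with and without the lowest in each RNAi group (*cat-2* RNAi replicate 2 and *cat-1* RNAi replicate 3), a pair chosen after seeing the data. Below they are called the pair of libraries that lie apart. *cat-2* RNAi replicate 3 was kept, although its weight was lower than that of *cat-1* RNAi replicate 3.

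The P450 genes spanned a wide range of levels in the EV worms, and a few of them made up most of the family's RNA. The CYP31A genes alone held 44.5% of the summed RPKM of the family and 40.7% of its reads. *cyp-31A5* was highest at 82.1 ± 3.17 RPKM (mean ± SD, n = 4), next to *cyp-31A2* at 81.4 ± 2.65 RPKM and *cyp-31A3* at 57.3 ± 1.76 RPKM. All 3 lie on chromosome IV, *cyp-31A3* from 4761049 to 4762885, *cyp-31A2* from 11403961 to 11406091 and *cyp-31A5* from 13401289 to 13403842 (WBcel235, the build that is also named ce11). The levels of *cyp-31A5* and *cyp-31A2* differed by less than their SD. The length behind the RPKM of *cyp-31A5* was 1048 bases, against 1399 exonic bases in the Ensembl annotation, and its EV level on the annotated length would be 61.5 RPKM. It also shares 101 bases with Y62E10A.19 on the other strand, and whether strand was used in counting is not stated. The CYP31A genes are related copies, and their sequences were not compared here. The sources used here do not say how the authors' counting placed reads that match several copies. The split between the copies, and the 1816 reads (12 libraries) of the pseudogene *cyp-31A1*, are thus uncertain.

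The next genes in the order of EV levels belong to the mitochondrial, CYP2 and CYP3 clans. *cyp-44A1*, the family's single member of the mitochondrial clan, was at 36.3 ± 1.41 RPKM. *cyp-35A2*, of a subfamily that xenobiotics induce strongly, was at 30.98 ± 3.03 RPKM and lay apart from *cyp-35C1* at 18.0 ± 2.16 RPKM. *cyp-35C1* and *cyp-25A2* (17.5 ± 1.38 RPKM) did not differ beyond their SD, and neither did *cyp-34A8* (14.3 ± 1.39 RPKM) and *cyp-25A1* (13.1 ± 1.59 RPKM). *cyp-14A5* followed at 10.4 ± 1.54 RPKM. The median EV level of the 49 tested members was 4.50 RPKM, against 12.4 RPKM over all features tested.

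Of the 81 members, 32 did not pass the minimum and 10 had an EV mean of at least 10 RPKM. The 32 had a median of 25 reads over the 12 libraries together and 31 of them had at least 1 read. The exception was *cyp-25A6* with 0 reads, which allows a level of up to 0.0179 RPKM over the 12 libraries if 3 reads are taken as the limit, for counting error alone. At the minimum, *cyp-34A6* entered the test with 4 libraries at 0.5 RPKM, and *cyp-13A10*, *cyp-33C5* and *cyp-33E3* with 6 each, while *cyp-33D3* stayed out with 1. The other 45 tested members reached the minimum in all 12 libraries. Most of the untested genes are of the CYP2 and CYP3 clans. Of the CYP4 clan 12 of 13 members were tested, of the CYP2 clan 27 of 46 and of the CYP3 clan 9 of 21.

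**Figure D1:**
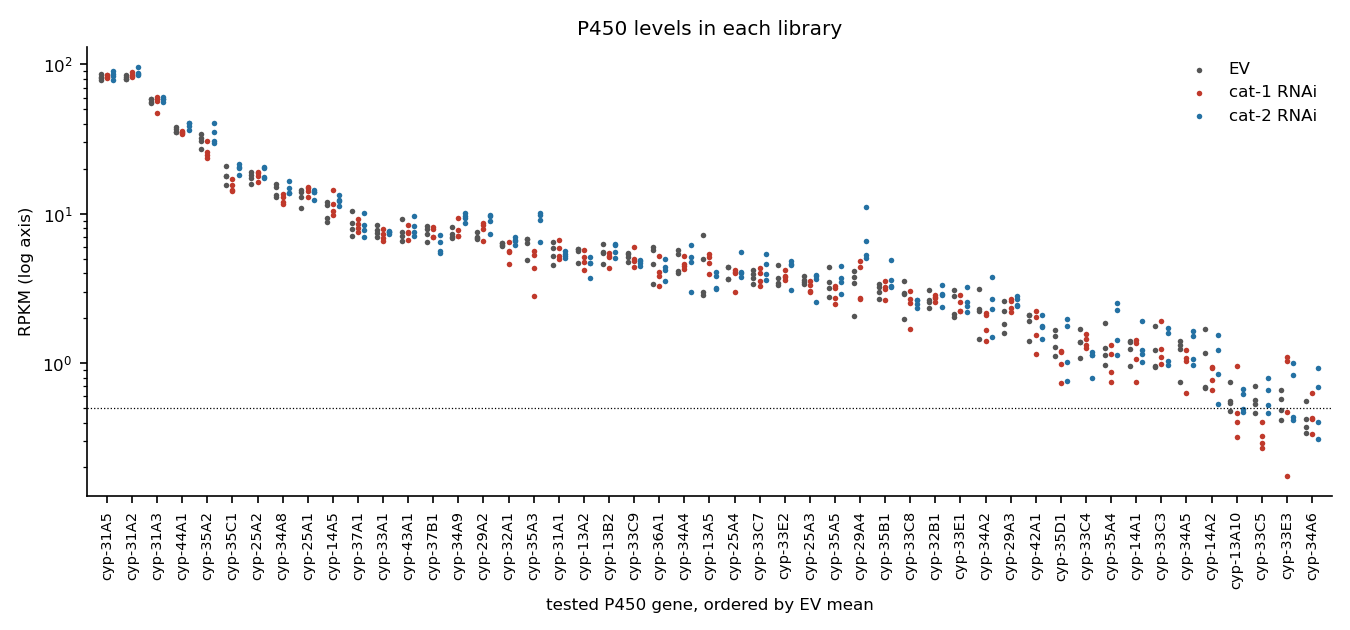
RPKM (log axis) of the 49 tested P450 genes in each of the 12 libraries, ordered by the EV mean, with EV in grey, *cat-1* RNAi in red and *cat-2* RNAi in blue. The dotted line is the minimum of 0.5 RPKM, and *cyp-31A5*, *cyp-31A2* and *cyp-31A3* stand at the top left with EV means of 57.3 to 82.1 RPKM.

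Some neighbouring P450 genes of the same genomic array differed widely in level and others did not. On genome build WBcel235, 80 members could be placed and 43 of these lie on chromosome V. With a gap of at most 10 kb between neighbours, 47 members fell into 13 arrays and 33 stood alone. Of the members in arrays 25 were tested, and of those that stood alone 23 were tested. One more tested gene, *cyp-34A4*, was not placed. The arrays hold 34 pairs of neighbours, of which 7 had EV means within 2-fold of each other, 10 lay between 2-fold and 10-fold, 14 were more than 10-fold apart and 3 held a gene listed at 0. Where both neighbours were tested, 5 of 10 pairs were within 2-fold and 0 were more than 10-fold apart. All 14 pairs more than 10-fold apart held a gene that was not tested, and such a gene is low by the rule of the test.

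The CYP13A array on chromosome II (9779181 to 9807569) holds 9 genes over 28.4 kb, of which *cyp-13A2* (5.48 RPKM in EV) and *cyp-13A5* (4.50 RPKM) were tested. The other 7 had EV means of 0 to 0.181 RPKM. On chromosome V (3936326 to 3972991) 10 genes of the CYP35 and CYP34A families share 36.7 kb, with *cyp-34A8* at 14.3 RPKM, *cyp-34A9* at 7.36 RPKM and *cyp-34A10*, the next gene, at 0.0164 RPKM. A pair of CYP35A copies was also far apart. *cyp-35A1* was at 0.0633 RPKM and *cyp-35A2*, which starts 2.39 kb from it on chromosome V, at 30.98 RPKM. *cyp-35A1* had 52 reads in all 12 libraries against 11624 for *cyp-35A2*. Among the neighbours of like level were *cyp-25A1* and *cyp-25A2* at 13.1 and 17.5 RPKM, *cyp-35A5* and *cyp-35B1* at 3.46 and 3.07 RPKM, and *cyp-33C4* and *cyp-33C3* at 1.38 and 1.22 RPKM.

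**Figure D2:**
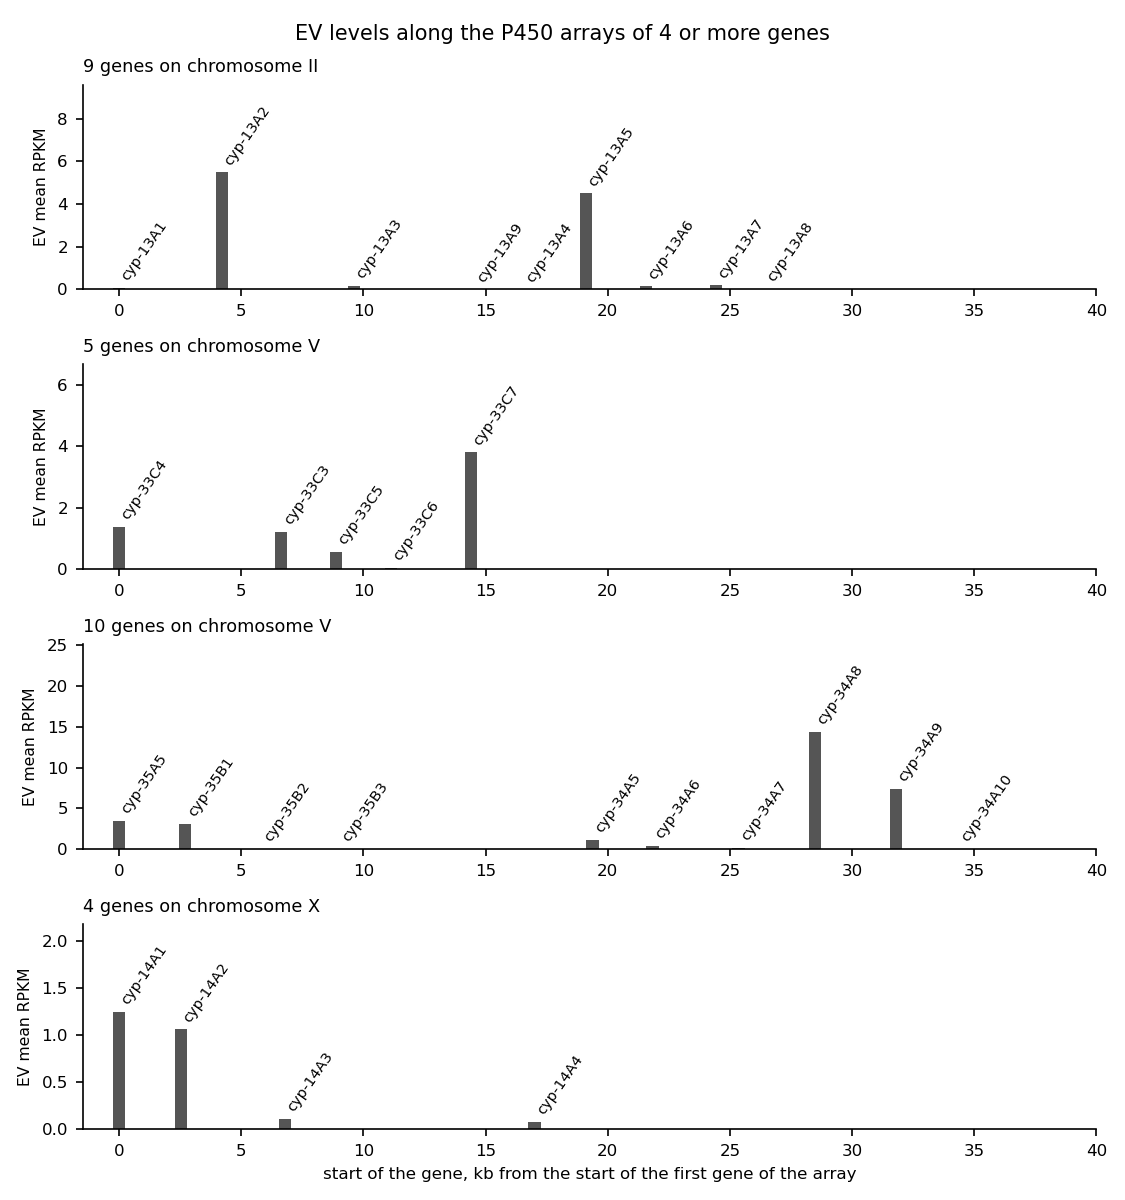
EV mean RPKM (n = 4 libraries) of each gene in the 4 arrays with 4 or more P450 genes, drawn at the distance in kb of its start from the start of the array's first gene. In the array of 10 genes on chromosome V, *cyp-34A8* stands at 14.3 RPKM while *cyp-34A10* is at 0.0164 RPKM.

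Libraries of the same group differed somewhat more in P450 genes than over all features, whose median level was higher. The median SD within groups was 0.175 on the log2(RPKM + 0.5) scale over the 49 tested members and 0.153 over all features tested. *cyp-29A4* had the widest spread at 0.423, followed by *cyp-33E3* at 0.408, *cyp-34A2* at 0.363, *cyp-14A2* at 0.360 and *cyp-13A5* at 0.358. Among the tested members the narrowest spreads were those of *cyp-44A1* at 0.0556, *cyp-31A2* at 0.0577 and *cyp-31A5* at 0.0611, and these are 3 of the 4 genes with the highest levels.

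The share of all mapped reads that fell on P450 genes was higher in every library labelled *cat-2* RNAi than in any other library. The EV libraries had 784, 759, 776 and 778 P450 RPM, which are reads scaled to the library's mapped reads as in RPKM but not divided by length. Those labelled *cat-1* RNAi had 769, 752, 778 and 735, and those labelled *cat-2* RNAi had 808, 851, 838 and 814. The values of *cat-1* RNAi and EV overlapped, and those of *cat-2* RNAi did not overlap with either. Without the CYP31A genes the same held, with 454 to 466 RPM in EV, 414 to 455 in *cat-1* RNAi and 484 to 514 in *cat-2* RNAi. No test was made of these sums, since they pool members. Leaving out the pair of libraries that lie apart cannot make separate groups overlap, so it was no check of this order. The CYP31A genes had a summed RPKM of 220 to 231 in EV, 224 to 233 in *cat-1* RNAi and 232 to 244 in *cat-2* RNAi, and only *cat-1* RNAi overlapped with both of the others. The 6 oocyte markers had summed levels of 2865 to 2967, 2761 to 2999 and 2903 to 3015 RPKM in the same order.

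**Figure D3:**
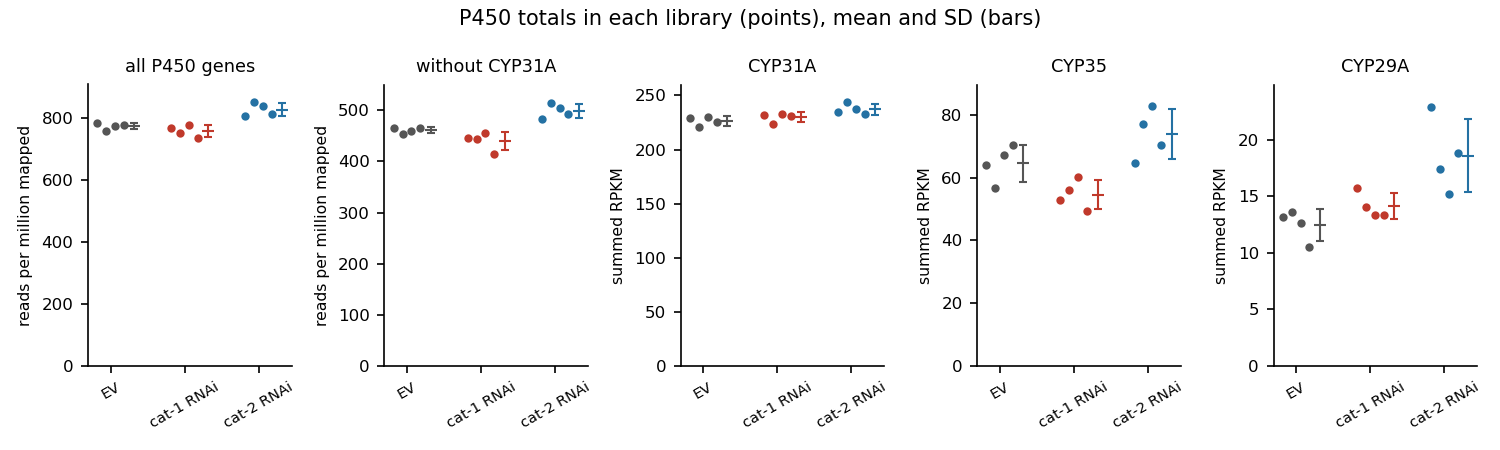
P450 RPM (reads scaled to mapped reads as in RPKM, for all members, and without CYP31A) and the summed RPKM of the CYP31A, CYP35 and CYP29A genes in each library (points), with the mean and SD of 4 libraries per group (bars), on axes from 0. The *cat-2* RNAi libraries lie at 808 to 851 P450 RPM, above the 759 to 784 of EV, and their CYP29A sums at 15.2 to 22.8 RPKM are above the 10.5 to 13.6 of EV.

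The first comparison asked which P450 transcripts differ when *cat-1* is targeted. The libraries labelled *cat-1* RNAi had lower levels of several CYP35 genes than EV, by 0.22 to 0.44 on the log2(RPKM + 0.5) scale, but no member passed the test. With limma and Benjamini-Hochberg adjustment over all 13161 features, 0 of 49 members and 0.0% of all features had an adjusted p under 0.05, and the smallest adjusted p of a member was 0.819. At an unadjusted p under 0.05, 4 members were lower (8.16%, against 2.49% of all features) and 0 were higher (against 3.45% of all features). Limma's voom on the recovered reads also gave 0 members past the adjusted threshold, with 4 lower and 0 higher unadjusted. Leaving out 1 library moved the 4 lower to 0 (*cat-1* RNAi replicate 4 dropped), to 1 (EV replicate 4 dropped) and to 2 when replicate 1 or replicate 3 of either group was left out. On the higher side 2 members passed p under 0.05 once EV replicate 2 was dropped, and 1 member once *cat-1* RNAi replicate 3 was dropped. The 4 were *cyp-35A2*, *cyp-35A3*, *cyp-35C1* and *cyp-33C5*, and without the pair of libraries that lie apart only *cyp-35A2* and *cyp-35C1* of these were at an unadjusted p under 0.05. The 4 include *cyp-33C5*, which no *cat-1* RNAi library had at the minimum, and 3 of 48 were lower without it.

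*cyp-35C1* was at 17.9, 15.5, 17.8 and 20.8 RPKM in the EV libraries and at 14.1, 15.5, 17.2 and 14.4 RPKM in those labelled *cat-1* RNAi. Of the *cat-1* RNAi libraries 3 lay below every EV library, replicate 2 by less than the printed digits show. The log2 difference was -0.22 ± 0.0907 (SE; limma, adjusted p = 0.819).

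*cyp-35A2*, one of the CYP35A genes that act in fat storage, was at 30.8, 26.95, 34.1 and 32.1 RPKM in EV and at 24.8, 26.05, 30.6 and 23.5 RPKM in *cat-1* RNAi. Again 3 of the 4 *cat-1* RNAi libraries lay below every EV library, and the log2 difference was -0.24 ± 0.106 (limma, adjusted p = 0.819). *cyp-35A3* was at 6.37, 4.91, 6.77 and 6.83 RPKM in EV and at 5.66, 5.33, 4.36 and 2.80 RPKM in *cat-1* RNAi. Its groups overlapped, and *cat-1* RNAi replicate 4 was lowest of all. Its log2 difference was -0.44 ± 0.191 (limma, adjusted p = 0.819). The same library had the lowest value of the 12 for 13 of the 49 tested members, more than any other.

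*cyp-33C5* was the single member whose groups did not overlap (2.04% of the members, against 1.65% of all features that were lower without overlap). It was at 0.533, 0.569, 0.462 and 0.705 RPKM in EV and at 0.403, 0.324, 0.270 and 0.293 RPKM in *cat-1* RNAi. No *cat-1* RNAi library reached the minimum of 0.5 RPKM, and the gene entered the test through 3 EV and 3 *cat-2* RNAi libraries, so it could only be tested if those were higher. Its log2 difference was -0.37 ± 0.164 (limma, adjusted p = 0.819). At this low level the size depends on the pseudocount, being -0.24 with 1 RPKM and -0.79 with voom on the recovered reads (adjusted p 0.471 to 0.999 over 23 alternatives). No member was higher without overlap (against 1.92% of all features).

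The median log2 difference of the 49 was -0.0359, against 0.00391 over all features. It was -0.00184 with no filter on low values and -0.0577 without *cat-1* RNAi replicate 1, and -0.0554 without EV replicate 2. Of the 49 differences, 19 were positive (38.8%, against 51.9% of all features). For 46 of 49 members the difference was under 0.3 in size. On the higher side the smallest p values were those of *cyp-29A3* (log2 difference 0.22 ± 0.139), a gene linked to eicosanoid synthesis, *cyp-31A2* (0.06 ± 0.0442), *cyp-29A2* (0.15 ± 0.109) and *cyp-25A1* (0.13 ± 0.0914), with adjusted p from 0.879 to 0.890 in limma. Leaving out the pair of libraries that lie apart put *cyp-29A2* at an unadjusted p under 0.05.

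*cyp-43A1* was looked at for its place, outside the rule for named genes, since it starts 3784 bases beyond the end of *cat-1* on chromosome X, with 2 annotated genes between them. It was at 7.09, 9.25, 6.58 and 7.53 RPKM in EV and at 7.47, 6.69, 8.35 and 7.57 RPKM in *cat-1* RNAi. The groups overlapped fully.

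The second comparison asked the same of *cat-2* RNAi. Here the tested CYP29A genes, *cyp-34A9* and *cyp-35A3* had higher mean levels than in EV, and none passed the adjusted threshold. Of these, *cyp-29A2*, *cyp-29A3* and *cyp-35A3* overlapped with EV. The log2 difference of *cyp-35A3* was 0.47 ± 0.191 (limma, adjusted p = 0.527). It was 0.40 ± 0.215 without the pair of libraries that lie apart (adjusted p = 0.615). In limma 0 of 49 members had an adjusted p under 0.05, against 0.0304% of all features (4 features), and the smallest adjusted p of a member was 0.461. At an unadjusted p under 0.05, 5 members were higher (10.2%, against 4.89% of all features) and 1 was lower (2.04%, against 3.95%). Voom on the recovered reads gave the same counts of 5 and 1, and 0 past the adjusted threshold. The split of 5 higher to 1 lower became 4 to 2 with median ratio scaling and 5 to 2 with quantile normalization. The 1 lower member was lost when EV replicate 2, or either of *cat-2* RNAi replicates 2 and 4, was left out, and the count became 2 when replicate 1 of either group was left out. Leaving out the pair of libraries that lie apart left 4 higher, *cyp-29A2*, *cyp-29A4*, *cyp-31A2* and *cyp-34A9*, and 0 lower.

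*cyp-29A4* (chromosome V, 9654755 to 9658120), of the CYP4 clan, many of whose enzymes hydroxylate fatty acids, had the largest difference of the tested members. It was at 3.78, 4.13, 3.42 and 2.07 RPKM in EV and at 11.2, 5.31, 5.07 and 6.598 RPKM in *cat-2* RNAi. The groups did not overlap, and replicate 1 of *cat-2* RNAi was far above the other 3. The log2 difference was 0.94 ± 0.258 (limma, adjusted p = 0.461).

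*cyp-29A2* was at 7.49, 6.90, 6.98 and 6.81 RPKM in EV and at 8.98, 9.65, 7.32 and 9.77 RPKM in *cat-2* RNAi. All but replicate 3 of *cat-2* RNAi were above every EV library, and the log2 difference was 0.31 ± 0.109 (limma, adjusted p = 0.489). *cyp-29A3* was at 1.82, 2.61, 2.22 and 1.60 RPKM in EV and at 2.67, 2.41, 2.80 and 2.43 RPKM in *cat-2* RNAi, which overlap. Summed over the CYP29A genes, EV had 10.5 to 13.6 RPKM, *cat-1* RNAi 13.3 to 15.7 RPKM and *cat-2* RNAi 15.2 to 22.8 RPKM. All 3 tested CYP29A genes had positive log2 differences from EV in both RNAi groups, which share the EV libraries.

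*cyp-34A9*, which is also known as a gene downstream of the insulin pathway's transcription factor DAF-16, was the other member without overlap. It was at 8.21, 7.02, 6.89 and 7.34 RPKM in EV and at 10.1, 9.39, 8.68 and 9.60 RPKM in *cat-2* RNAi. Every *cat-2* RNAi library was above every EV library, with a log2 difference of 0.34 ± 0.0996 (limma, adjusted p = 0.469). These 2 members are 4.08% of the 49, against 3.03% of all features that were higher without overlap, and no member was lower without overlap (against 2.42% of all features).

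*cyp-31A2*, the eggshell gene, was at 84.9, 82.0, 79.3 and 79.4 RPKM in EV and at 86.7, 87.3, 95.4 and 84.7 RPKM in *cat-2* RNAi. Its log2 difference was small, at 0.12 ± 0.0442 (limma, adjusted p = 0.509), and its copies *cyp-31A3* and *cyp-31A5* were at 0.03 ± 0.0652 and 0.05 ± 0.0457. *cyp-37B1* was the member at an unadjusted p under 0.05 on the lower side. It was at 6.48, 7.87, 8.22 and 7.29 RPKM in EV and at 6.499, 5.60, 7.16 and 5.48 RPKM in *cat-2* RNAi, with a log2 difference of -0.26 ± 0.108 (limma, adjusted p = 0.550).

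The median log2 difference of the 49 members was 0.0742, against 0.0114 over all features. It became 0.0401 with quantile normalization, 0.0464 with quality weights and 0.0490 without *cat-2* RNAi replicate 4. Of the 49 differences, 33 were positive (67.3%, against 54.01%). By clan the medians were 0.09 for CYP2 (27 genes), 0.07 for CYP3 (9 genes) and 0.06 for CYP4 (12 genes). *cyp-33C9*, a gene of the CYP2 clan, had a difference of -0.12 ± 0.104. The 3 tested CYP13A genes had a median of -0.22 and 0 of 3 positive. Of these, *cyp-13A2* was at 5.81, 5.65, 4.70 and 5.78 RPKM in EV and at 5.12, 4.66, 4.68 and 3.72 RPKM in *cat-2* RNAi, with an adjusted p of 0.580 in limma.

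The third comparison set the RNAi groups against each other, and here the count of members at an unadjusted p under 0.05 was highest of the 3. The log2 difference of *cat-1* RNAi from *cat-2* RNAi was positive for 9 of the 49 tested members, and all 7 tested CYP35 genes had lower values in *cat-1* RNAi. Even so 0 of 49 members, and 0.0% of all features, had an adjusted p under 0.05 in limma, and the smallest adjusted p of a member was 0.360. At an unadjusted p under 0.05, 10 members were lower in *cat-1* RNAi (20.4%, against 3.28% of all features) and 1 was higher (2.04%, against 3.16%). Voom gave the same 10 and 1, with 0 past the adjusted threshold. The 10 became 6 without *cat-1* RNAi replicate 4, and 6 without the pair of libraries that lie apart, of which 5 were among the 10 and the sixth was *cyp-34A2*. The 5 of the 10 that were no longer at an unadjusted p under 0.05 without that pair were *cyp-32A1*, *cyp-33C5*, *cyp-34A8*, *cyp-34A9* and *cyp-35A4*. The 1 higher member, *cyp-37B1*, was lost in either case, and also when *cat-1* RNAi replicate 3 or either of *cat-2* RNAi replicates 2 and 4 was left out, and the count became 2 without EV replicate 2. Groups did not overlap for 6 members that were lower (12.2%, against 1.95% of all features) and for 1 that was higher (2.04%, against 1.23%). Without *cyp-33C5*, which could be tested only through EV and *cat-2* RNAi libraries, 9 of 48 were lower at an unadjusted p under 0.05 and 5 were lower without overlap.

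*cyp-35A3* (chromosome V, 4022609 to 4024482) had the smallest p of the tested members in any comparison. It was at 5.66, 5.33, 4.36 and 2.80 RPKM in *cat-1* RNAi and at 6.52, 10.1, 9.79 and 9.02 RPKM in *cat-2* RNAi. The groups did not overlap with each other, and EV at 4.91 to 6.83 RPKM overlapped with both. The log2 difference was -0.92 ± 0.191 (limma, adjusted p = 0.360), and -0.85 ± 0.229 without the pair of libraries that lie apart (adjusted p = 0.362).

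*cyp-35C1* was at 14.1 to 17.2 RPKM in *cat-1* RNAi and at 18.2, 20.4, 20.2 and 21.5 RPKM in *cat-2* RNAi. Its groups did not overlap either, and the log2 difference was -0.38 ± 0.0907 (limma, adjusted p = 0.549). *cyp-35A2* was at 23.5 to 30.6 RPKM in *cat-1* RNAi and at 29.6, 35.4, 40.5 and 30.5 RPKM in *cat-2* RNAi, and these overlapped through 1 library of *cat-1* RNAi, replicate 3. Its log2 difference was -0.36 ± 0.106 (limma, adjusted p = 0.648).

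*cyp-35A4* was at 0.878, 1.32, 1.16 and 0.749 RPKM in *cat-1* RNAi and at 1.42, 2.27, 2.51 and 1.14 RPKM in *cat-2* RNAi. The high values were those of *cat-2* RNAi replicates 2 and 3, and the log2 difference was -0.58 ± 0.221 (limma, adjusted p = 0.727), or -0.53 ± 0.260 without the pair of libraries that lie apart (adjusted p = 0.590). All 7 tested CYP35 genes were lower in *cat-1* RNAi, with a median log2 difference of -0.36. The other 3, *cyp-35A5*, *cyp-35B1* and *cyp-35D1*, had differences of -0.27, -0.22 and -0.25 with groups that overlapped. *cyp-35B1* is known as a target of DAF-16 in long-lived worms.

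The summed RPKM of the CYP35 genes was 63.9, 56.7, 67.3 and 70.5 in EV, 52.7, 56.0, 60.3 and 49.2 in *cat-1* RNAi and 64.8, 77.2, 82.9 and 70.3 in *cat-2* RNAi. The RNAi groups did not overlap with each other, and both overlapped with EV. The highest sums were those of *cat-2* RNAi replicates 2 and 3, which also had the lowest quality weights. The other *cat-2* RNAi libraries, at 64.8 and 70.3, lay above every *cat-1* RNAi library and within the range of EV. Against EV the median log2 difference of the 7 genes was -0.23 in *cat-1* RNAi (1 of 7 positive) and 0.16 in *cat-2* RNAi (6 of 7 positive). The summed RPKM of the 10 intestinal markers was 5033 to 5897 in EV, 5160 to 5932 in *cat-1* RNAi and 4928 to 6243 in *cat-2* RNAi. Of the 10, 4 were higher and 0 lower in *cat-1* RNAi than in *cat-2* RNAi at an unadjusted p under 0.05 (against 3.16% and 3.28% of all features). Their median log2 difference was 0.0692 between the RNAi groups and -0.127 for *cat-2* RNAi against EV, both opposite in sign to the CYP35 medians. For *cat-1* RNAi against EV it was -0.0113, of the same sign. At the same unadjusted level, 3 of the 10 lay below EV in *cat-2* RNAi and 0 above. Unlike the median of the 10 between the RNAi groups, the intestinal marker *elt-2* differed in the direction of the CYP35 genes. It was at 2.76 ± 0.127 RPKM in EV, 2.61 ± 0.313 RPKM in *cat-1* RNAi and 3.18 ± 0.607 RPKM in *cat-2* RNAi. Its log2 difference between the RNAi groups was -0.23 ± 0.135 (limma, adjusted p = 0.825). The 8 epidermal markers were at 1198 to 1389 summed RPKM in EV, 1079 to 1233 in *cat-1* RNAi and 995 to 1074 in *cat-2* RNAi. The part of either tissue in the P450 values was not tested.

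**Figure D4:**
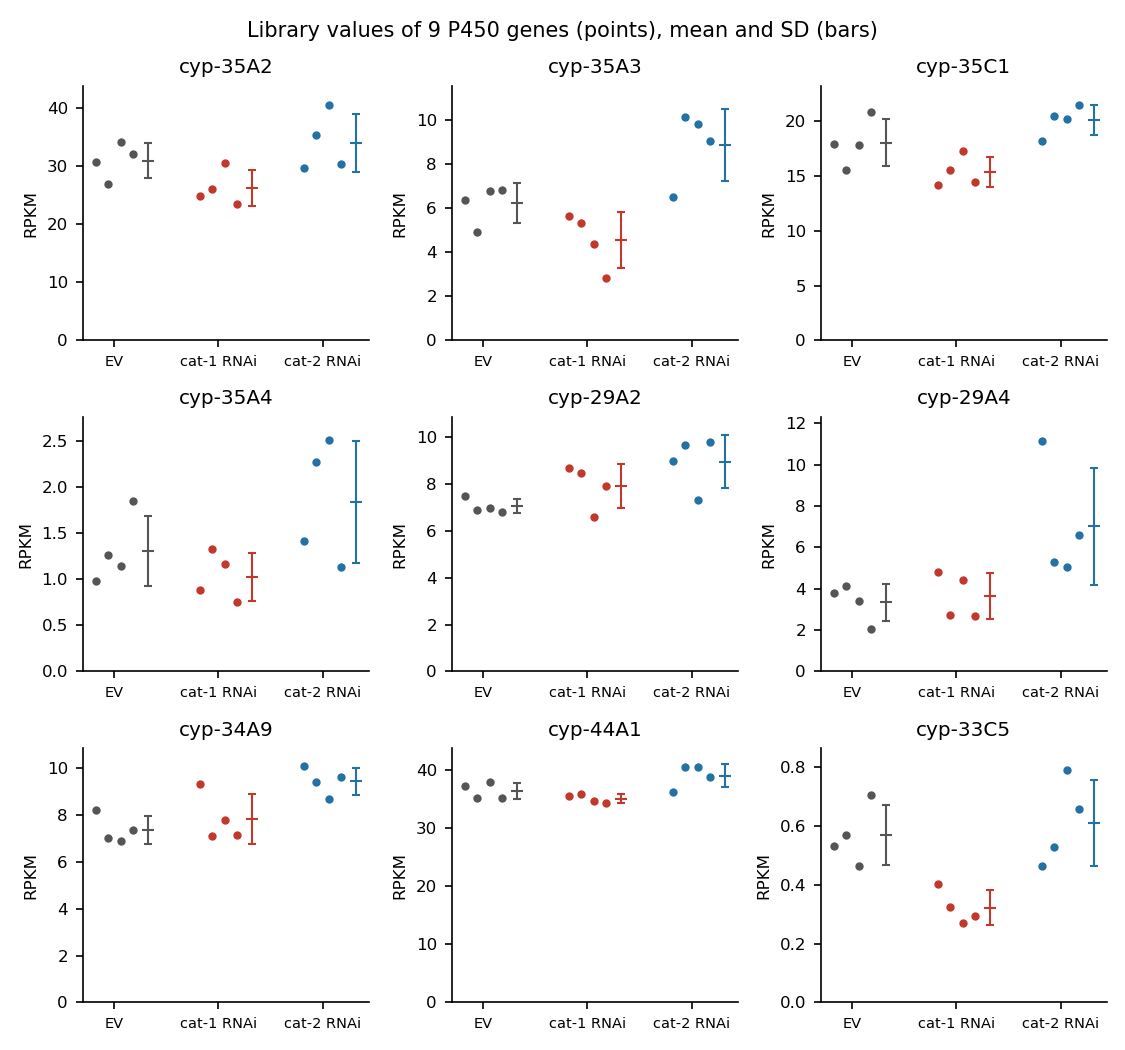
RPKM of 9 P450 genes in each library (points, replicates 1 to 4 from left to right in each group) with the mean and SD of 4 libraries (bars), on axes from 0. For *cyp-35A3* the *cat-1* RNAi libraries lie at 2.80 to 5.66 RPKM and the *cat-2* RNAi libraries at 6.52 to 10.1 RPKM, and EV overlaps with both at 4.91 to 6.83 RPKM.

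Outside the CYP35 genes, *cyp-29A4* was at 4.80, 2.73, 4.43 and 2.68 RPKM in *cat-1* RNAi, below every *cat-2* RNAi library and overlapping with EV. Its log2 difference between the RNAi groups was -0.83 ± 0.258 (limma, adjusted p = 0.675). *cyp-44A1*, whose libraries varied least of the 49 tested members, was at 35.4, 35.8, 34.5 and 34.3 RPKM in *cat-1* RNAi and at 36.2, 40.4, 40.4 and 38.7 RPKM in *cat-2* RNAi. The groups did not overlap although the log2 difference was as small as -0.15 ± 0.0478 (limma, adjusted p = 0.699). The gene shares 106 bases with *npp-24* on the same strand.

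*cyp-34A8* was at 13.03, 13.6, 12.04 and 11.7 RPKM in *cat-1* RNAi and at 13.7, 16.5, 14.99 and 13.7 RPKM in *cat-2* RNAi, without overlap by a narrow margin between *cat-1* RNAi replicate 2 and *cat-2* RNAi replicate 4. Its neighbour *cyp-34A9* was at 9.33, 7.09, 7.77 and 7.12 RPKM in *cat-1* RNAi, and *cat-1* RNAi replicate 1 lay within the *cat-2* RNAi range. The log2 differences of this pair were -0.22 ± 0.0875 and -0.26 ± 0.0996 (limma, adjusted p = 0.745 and 0.727). Without the pair of libraries that lie apart they were -0.14 ± 0.0944 and -0.26 ± 0.121 (adjusted p = 0.697 and 0.555).

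On the higher side *cyp-33C4* was the single gene without overlap, at 1.44, 1.32, 1.57 and 1.26 RPKM in *cat-1* RNAi and 0.797, 1.14, 1.19 and 1.14 RPKM in *cat-2* RNAi. The log2 difference was 0.29 ± 0.149 (limma, adjusted p = 0.824). *cyp-33C5*, 2 genes away in the same array, was at -0.43 ± 0.164 (adjusted p = 0.727), and since no *cat-1* RNAi library reached the minimum, lower values there were a condition of its being tested. *cyp-32A1* completed the 10 lower members with a log2 difference of -0.23 ± 0.0986, and -0.23 ± 0.120 without the pair of libraries that lie apart (limma, adjusted p = 0.751 and 0.607). *cyp-37B1* was at 7.01, 7.01, 7.91 and 8.17 RPKM in *cat-1* RNAi, with a log2 difference of 0.27 ± 0.108 (limma, adjusted p = 0.745).

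The median log2 difference between the RNAi groups was -0.0956 over the 49 members and -0.00371 over all features. It was -0.0678 with no filter on low values, -0.127 with voom and -0.143 without *cat-1* RNAi replicate 3. Of the 49 differences, 9 were positive (18.4%, against 48.5% of all features). By clan the medians were -0.17 for CYP2 (3 of 27 positive), -0.07 for CYP3 (3 of 9 positive) and -0.05 for CYP4 (3 of 12 positive).

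**Figure D5:**
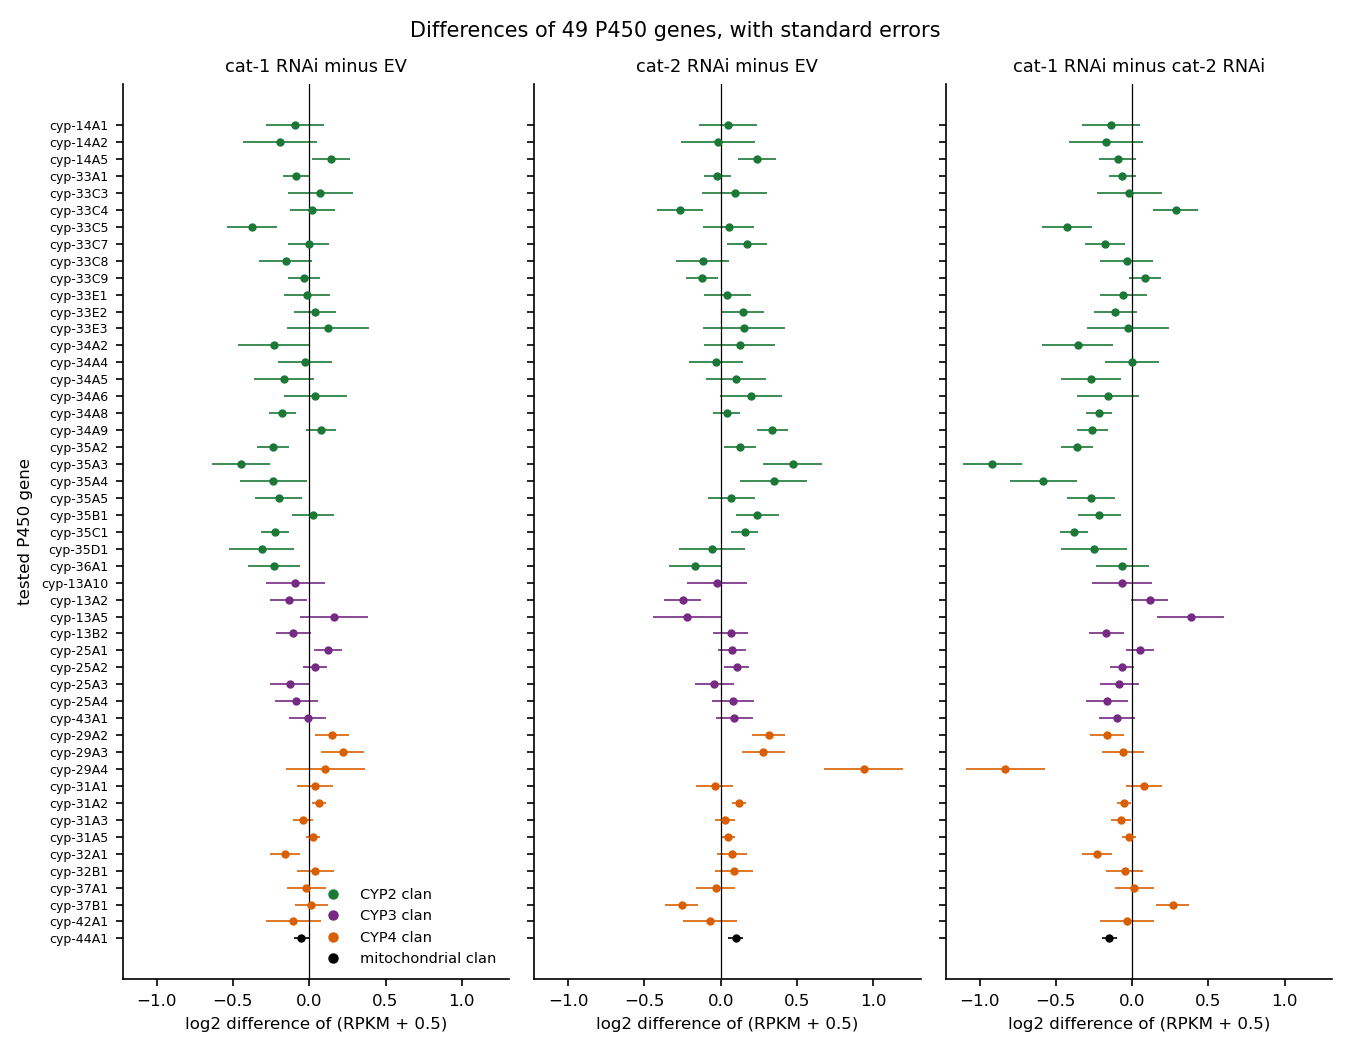
Log2 differences of RPKM + 0.5 with limma's standard errors for the 49 tested P450 genes in the 3 comparisons, coloured by clan. *cyp-35A3* at -0.92 and *cyp-29A4* at -0.83 lie farthest to the left in *cat-1* RNAi minus *cat-2* RNAi, and *cyp-29A4* at 0.94 farthest to the right in *cat-2* RNAi minus EV, and no gene passed an adjusted p of 0.05.

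Members with known roles that did not stand out in any comparison were also measured. *cyp-36A1*, which acts in neurons in the response to low oxygen, was at 4.95 ± 1.18 RPKM in EV, 4.11 ± 0.825 RPKM in *cat-1* RNAi and 4.29 ± 0.574 RPKM in *cat-2* RNAi. *cyp-33E2*, expressed in the pharynx and linked to eicosanoids, was at 3.76 ± 0.549, 3.85 ± 0.232 and 4.25 ± 0.796 RPKM in the same order. *cyp-13A12*, which drives the locomotion response to reoxygenation, did not pass the minimum and had 73 reads in all libraries together, and *cyp-35A1* had 52. Neither was tested.

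The genes that P450 enzymes work with were measured as well, and of the lists that follow no gene passed the adjusted threshold in limma in any comparison. Counts at an unadjusted p under 0.05 are read against the shares of all features, which were 3.45% higher and 2.49% lower in *cat-1* RNAi than in EV, 4.89% and 3.95% in *cat-2* RNAi than in EV, and 3.16% and 3.28% in *cat-1* RNAi than in *cat-2* RNAi. Of the 4 tested partner genes 0 had an unadjusted p under 0.05. *emb-8*, the reductase that passes electrons to P450 enzymes, was at 77.5 ± 3.20 RPKM in EV, 75.8 ± 1.80 RPKM in *cat-1* RNAi and 81.1 ± 7.203 RPKM in *cat-2* RNAi. *daf-9*, a P450 outside the naming rule that makes the steroid hormone dafachronic acid, was under the minimum. It was at 0.654, 0.430, 0.623 and 0.460 RPKM in EV, at 0.330, 0.514, 0.475 and 0.393 RPKM in *cat-1* RNAi and at 0.175, 0.304, 0.104 and 0.372 RPKM in *cat-2* RNAi. It reached 0.5 RPKM in 3 of the 12 libraries. Every *cat-2* RNAi library was below every EV library (against 2.42% of all tested features that were lower without overlap), and this was not tested. *daf-36*, which opens the same pathway, was at 9.28 ± 0.707 RPKM in EV, 9.62 ± 0.946 RPKM in *cat-1* RNAi and 7.63 ± 1.12 RPKM in *cat-2* RNAi (log2 difference of *cat-2* RNAi from EV -0.27 ± 0.110, adjusted p = 0.523). This difference was at an unadjusted p under 0.05 with all libraries, but not without the pair of libraries that lie apart. Between the RNAi groups *daf-36* was higher in *cat-1* RNAi at an unadjusted p under 0.05 with and without the pair, and *ncr-1* only without it.

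Heme transport genes were measured because P450 enzymes need heme. Of 6 tested, *hrg-1* and *hrg-4* were lower in *cat-1* RNAi at an unadjusted p under 0.05, and *hrg-4* in *cat-2* RNAi (against 2.49% and 3.95% of all features), while 0 of the 6 were higher in either. *hrg-1*, a heme transporter of the lysosome, was at 9.85 ± 1.60 RPKM in EV and 7.18 ± 1.28 RPKM in *cat-1* RNAi (limma, adjusted p = 0.819). *hrg-4*, the intestinal heme importer, was at 4.09 ± 0.586 RPKM in EV, 2.92 ± 0.696 RPKM in *cat-1* RNAi and 2.89 ± 0.785 RPKM in *cat-2* RNAi (adjusted p = 0.819 and 0.527). Of 18 tested regulators of detoxification and stress, 1 was higher and 1 lower than EV at an unadjusted p under 0.05 in each RNAi group, and 0 were higher and 1 lower between the RNAi groups. *cbp-1*, the gene of a histone acetyltransferase, was the higher one in both, at 44.8 ± 1.88 RPKM in EV, 52.2 ± 6.65 RPKM in *cat-1* RNAi and 52.3 ± 4.58 RPKM in *cat-2* RNAi (adjusted p = 0.819 and 0.514). *pqm-1*, which codes for a zinc finger transcription factor, was the lower one in *cat-2* RNAi at 14.9 ± 2.51 RPKM against 17.7 ± 1.49 RPKM in EV (adjusted p = 0.556). The lower one in *cat-1* RNAi against EV and against *cat-2* RNAi was *nhr-86*, the gene of a nuclear hormone receptor, at 37.9 ± 2.83 RPKM in EV, 34.7 ± 1.60 RPKM in *cat-1* RNAi and 39.1 ± 1.33 RPKM in *cat-2* RNAi. Its log2 difference was -0.13 ± 0.0564 from EV (adjusted p = 0.819) and, between the RNAi groups, -0.17 ± 0.0564 (adjusted p = 0.699). Of 12 tested genes of the eggshell barrier, the pathway of the CYP31A enzymes, 1 had higher values in each RNAi group than in EV with an unadjusted p under 0.05 and 0 had lower values, and in both it was *fasn-1*, the fatty acid synthase gene (against 3.45% and 4.89% of all features higher). Between the RNAi groups 1 of the 12, *chs-1*, was lower in *cat-1* RNAi and 0 were higher (against 3.28% and 3.16% of all features). Without the pair of libraries that lie apart, *nhr-86* against EV and *fasn-1* in *cat-2* RNAi were no longer at an unadjusted p under 0.05. Nor was *chs-1* between the RNAi groups. Newly under it in *cat-1* RNAi against EV were *nhr-176*, *hrg-2* and *dgtr-1*, all lower. Between the RNAi groups *elt-2*, *hrg-2*, *cpg-1* and *cpg-2* were newly lower in *cat-1* RNAi and *cbp-1* newly higher. The shares of all features were then 4.19% lower and 7.71% higher in *cat-1* RNAi against EV, and 4.08% and 5.02% between the RNAi groups.

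The later steps of detoxification were counted in the same way, against the same shares of all features. Of 51 tested UDP-glucuronosyltransferase genes, 7 were lower and 0 higher in *cat-1* RNAi than in EV at an unadjusted p under 0.05 (against 2.49% and 3.45% of all features), and 1 was lower and 2 higher in *cat-2* RNAi (against 3.95% and 4.89%). Of 34 tested glutathione S-transferase genes, 3 were lower and 0 higher in *cat-1* RNAi, and 4 lower and 2 higher in *cat-2* RNAi. Between the RNAi groups, 4 UDP-glucuronosyltransferase genes were lower and 0 higher in *cat-1* RNAi, and 1 glutathione S-transferase gene was lower and 4 were higher (against 3.28% and 3.16%). Without the pair of libraries that lie apart the UDP-glucuronosyltransferase genes were 7 lower and 0 higher in *cat-1* RNAi against EV and 3 lower and 2 higher between the RNAi groups, and the glutathione S-transferase genes 4 lower and 0 higher, and 3 lower and 2 higher. The shares of all features were then 4.19% lower and 7.71% higher against EV, and 4.08% lower and 5.02% higher between the RNAi groups. For *cat-2* RNAi against EV without that pair, 2 UDP-glucuronosyltransferase genes were lower and 1 higher, and 2 glutathione S-transferase genes were lower and 2 higher (against 4.33% and 4.41% of all features). Of 11 tested P-glycoprotein genes, which pump compounds out of the cell, none was at an unadjusted p under 0.05 in any comparison with all libraries. Without that pair *pgp-4* was higher in *cat-1* RNAi than in *cat-2* RNAi. Among 11 genes of polyunsaturated fatty acid and epoxide metabolism, *elo-2*, a fatty acid elongase, was lower in *cat-2* RNAi at 63.3 ± 4.22 RPKM than in EV at 73.7 ± 5.23 RPKM (log2 difference -0.22 ± 0.0627, adjusted p = 0.461). The desaturase gene *fat-3* was at 65.6 ± 5.70 RPKM in EV and 74.5 ± 8.10 RPKM in *cat-2* RNAi (adjusted p = 0.530). Between the RNAi groups *elo-2* was higher and *fat-3* lower in *cat-1* RNAi at an unadjusted p under 0.05, with and without the pair. Without the pair *ceeh-1* in *cat-1* RNAi and *elo-1* in *cat-2* RNAi were also lower than in EV at that level.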

How the data were processed

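RNA from 12 whole-worm libraries (3 groups of 4, 18765779 to 21493743 mapped reads each) was sequenced by the authors as paired-end reads of 150 bases after poly(A) selection. The authors mapped the reads to ce11 with CLC software and deposited RPKM values for 46739 features. Settings for mapping, strand and multiple matches are not stated in these sources. The means, p-values and FDR columns of the same deposited table hold the authors' own comparisons and were not used. Whole reads (tolerance 0.001) were recovered for 100% of the 20423 features above 0, so counting error can be read from the reads. The length used was the annotated exon length for 2298 of these features, and otherwise the smallest that made all values whole. For features seen in few libraries some length nearly always fits, so their reads are less certain. Recovered reads summed to 99.2% to 99.3% of the mapped reads.

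Features with 0.5 RPKM or more in 4 or more libraries were kept, and log2(RPKM + 0.5) was fitted with limma 3.58.1 (R 4.3.3; trend, robust estimation, 12 libraries in 1 model, 3 comparisons that share libraries) with Benjamini-Hochberg adjustment over 13161 features at a threshold of 0.05. The pseudocount makes differences of low genes smaller. The count test planned for raw counts was replaced because the table holds RPKM. Tables and plots were made with Python 3.11.15, pandas 2.3.3 and matplotlib 3.10.9. The fit was tested on simulated data. Replicate pairs differed by more than counting error (chi-square per feature 3.25 to 38.6 over 18 pairs, against 1).

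Named members were, for each comparison, the 4 higher and 4 lower with the smallest p, and any past the threshold. Added to these were the 10 with the highest EV level, those with a described role and those with the widest or narrowest spread within groups, 32 in all. Members, gene lists and markers were chosen with earlier results of these data known. Of the members, 74 matched the Ensembl annotation by symbol and 6 pseudogenes were placed by RefSeq. The alternatives were other pseudocounts, filters and scalings, a replicate block, 2 groups in the model, quality weights, no trend, voom on recovered reads, each library left out, and a pair of libraries left out, which was added after seeing the data.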

Additional observations from a re-analysis of the deposited data

Results flagged for a closer look

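In 4 of 90 groups of 4 libraries, 1 library of a named P450 gene lay apart from the other 3 by more of the group's range than Dixon's critical value allows. Chance would give about 1 in 20 groups for genes named without regard to their values. These genes were named partly for their p or their spread in the same libraries, so 4 of 90 cannot be set against that rate. *cyp-13A2* was at 4.70 RPKM in EV replicate 3 and at 5.65 to 5.81 RPKM in the other EV libraries (gap 0.852 of the range). *cyp-25A1* was at 12.4 RPKM in *cat-2* RNAi replicate 1 and at 14.1 to 14.4 RPKM in the others of that group (gap 0.856). *cyp-33C4* was at 0.797 RPKM in *cat-2* RNAi replicate 1, against 1.14 to 1.19 RPKM (gap 0.874). *cyp-33E2* was at 3.07 RPKM in *cat-2* RNAi replicate 3, against 4.52 to 4.81 RPKM (gap 0.834). In all 4 cases the library apart was the lowest of its group.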

How the results depend on the processing

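No P450 gene passed an adjusted p of 0.05 under any of the 24 alternatives, and all 575 values of the 24 named differences kept their direction and stayed above that threshold. These differences were picked for their small p in the same libraries, so a kept direction was likely beforehand. Leaving out a library of the group outside a comparison cannot move its differences. Over the alternatives, *cyp-35A3* differed between the RNAi groups by -1.05 to -0.73 (limma, adjusted p 0.164 to 0.728) and *cyp-29A4* between *cat-2* RNAi and EV by 0.70 to 1.14 (adjusted p 0.191 to 0.748). All 128 EV means with 1 EV library left out stayed within 1 SD of the full mean. Leaving out 1 library cannot move a group's mean by as much as that group's own SD. The outcome was therefore fixed beforehand and does not show how stable the EV levels are. Counts at an unadjusted p under 0.05 did change between alternatives.

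For *cat-1* RNAi against EV, leaving out the pair of libraries that lie apart, chosen after seeing the data, gave 1 higher and 2 lower (0 and 4 with all libraries), and leaving out 1 library gave 0 to 2 higher and 0 to 5 lower. For *cat-2* RNAi against EV, no filter gave 9 higher (80 genes tested), in place of 5. The 1 lower became 2 with median ratio scaling, quantile normalization or quality weights, 3 with no trend and no robust estimation, and 0 with 2 groups in the model or without the pair, and 0 to 2 without 1 library. The share of higher among both was 83.3%, against 66.7% with median ratio scaling and 71.4% with quantile normalization. Between the RNAi groups, the 1 higher became 0 with quantile normalization or without the pair and 2 with the replicate block, with 2 groups in the model or with no trend, and 0 to 2 without 1 library. The 10 lower became 6 without the pair and 6 to 10 without 1 library. The median differences of the members kept their sign. That of *cat-1* RNAi from EV (-0.0359) was -0.0577 to -0.0309 without 1 library and -0.0509 to -0.00184 under the other settings, the last with no filter. That of *cat-2* RNAi from EV (0.0742) was 0.0490 to 0.0890 and 0.0401 to 0.0808, and that between the RNAi groups (-0.0956) -0.143 to -0.0856 and -0.127 to -0.0678. The cause was not tested.

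Same-numbered libraries did not deviate together (correlations -0.0578 to 0.185 over 12 pairs, 1 over 0.1), so the numbers were not taken as pairs. With the replicate block, 3 members were lower against EV in *cat-1* RNAi, 5 were higher and 1 lower in *cat-2* RNAi, and 2 were higher and 10 lower between the RNAi groups. Precision is limited by 4 libraries per group and, for the 32 untested members, by depth.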
